A study of Mus musculus with 2 samples.

Results

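A group of 10 genes around the transcriptional coactivator YAP was followed in primary chondrocytes of the mouse, before mechanical loading and 24 h later. They were the coactivator genes Yap1 and Wwtr1, the transcription factor genes Tead1, Tead2 and Tead3, the CCN family genes Ccn1, Ccn2 and Ccn3 (called Cyr61, Ctgf and Nov in older annotation), the target gene Ankrd1 and the phosphatase gene Ptpn14. The members were taken by gene name, through the RefSeq transcript that each probe of the array was designed on. No value entered this rule, but earlier results of these data were known when the group was chosen. All 10 genes had at least 1 probe, out of 20660 genes named in this way, and 13 probes measured them. Chondrocytes were isolated from C57BL/6J mice at 6 days of age and cultured for 48 h in silicon chambers coated with fibronectin, which were then stretched at 0.5 Hz with 10% elongation for 30 min. One sample was taken before the loading and the other 24 h after it. No allele and no agent other than the stretch was named for either sample, and each was hybridised to a single one-colour Agilent array. A culture left unloaded for the same 24 h was not analysed here, so that the loading and the additional time in culture cannot be told apart.

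With 1 array per time point there was no replicate error, and no test between the time points was possible. Values are therefore given as the intensity on each array and as the log2 ratio of 24 h after to before loading, after each array was scaled to its 75th percentile. The error beside a ratio combines the scanner software's errors of both spots on the log2 scale. It covers error within an array only, and not the spread between cultures. For bright spots it was nearly a fixed share of the intensity, as with 9412 on 94116 for Ccn2 and 936 on 9363 for Yap1 before loading. Bright probes therefore had nearly the same error of 0.20 on the log2 ratio, which acts much like a fixed fold cutoff. A gene was called detected when its brightest probe was well above background on both arrays, which held for 14231 genes and for 9 of the 10 members. Their log2 ratios had a median of -0.01, and the 5th and 95th percentiles were -0.63 and 0.51. Markers of the labelled cell type were present: all 10 chondrocyte markers, including Col2a1, Acan and Sox9, were detected, and their summed scaled intensity was 2704 before and 2674 after loading. Single markers differed in both directions, with log2 ratios of -0.82 for Col11a1, past 1.5-fold, and 0.56 for Matn1, with an error of 0.20 each. The intensity of a gene on these arrays does not separate a change in the number of cells of one type from a change in RNA per cell.

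YAP, encoded by Yap1, and its paralogue TAZ, encoded by Wwtr1, do not bind DNA themselves. They enter the nucleus and act through the TEAD transcription factors, which recognise a short DNA motif. The Hippo kinases phosphorylate YAP and TAZ and hold them in the cytoplasm, whereas stretch, a stiff substrate and actin tension favour their entry into the nucleus, so that their activity is set largely at the protein level. Ccn1, Ccn2 and Ankrd1 are commonly used readouts of this activity, and the CCN proteins are secreted matrix-associated factors. CCN2 in particular is abundant in growth cartilage.

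The TEAD motif was searched in the RefSeq promoters of the members (GRCm38.p6, 250 bases before to 50 bases after the annotated start), as the exact letters GGAATG, or CATTCC for the opposite strand. Promoters were at hand for 7 members, with 10 start sites in all, and were not analysed here for Tead1, Ccn2 and Ccn3. The letters were found for 6 of the 7 genes, the exception being Tead2, whereas 16.6% of the 27025 genes of the table and 14.7% of its 32851 promoters held them. These shares are not of like groups. The 7 genes include known targets of YAP and TEAD, and Wwtr1 and Tead3 had several start sites, each a further place for a match. A match describes the letters only and is no evidence of binding. The 250 bases before the start are shown for Ccn1, Ankrd1 and Ptpn14, the 3 members described below as targets of YAP and TEAD for which a promoter was at hand, with the motif in capitals.
Ccn1, chr3:145649986-145650235, minus strand: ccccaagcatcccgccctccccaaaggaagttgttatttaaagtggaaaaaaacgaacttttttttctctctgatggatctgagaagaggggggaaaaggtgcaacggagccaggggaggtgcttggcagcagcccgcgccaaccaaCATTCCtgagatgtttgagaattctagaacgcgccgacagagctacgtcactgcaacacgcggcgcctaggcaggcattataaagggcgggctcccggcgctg
Ankrd1, chr19:36119845-36120094, minus strand: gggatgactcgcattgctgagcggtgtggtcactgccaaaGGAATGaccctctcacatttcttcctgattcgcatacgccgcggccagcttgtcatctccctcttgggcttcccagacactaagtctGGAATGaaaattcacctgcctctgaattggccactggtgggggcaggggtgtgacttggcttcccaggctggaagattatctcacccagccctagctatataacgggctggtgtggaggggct
Ptpn14, chr1:189728018-189728267, plus strand: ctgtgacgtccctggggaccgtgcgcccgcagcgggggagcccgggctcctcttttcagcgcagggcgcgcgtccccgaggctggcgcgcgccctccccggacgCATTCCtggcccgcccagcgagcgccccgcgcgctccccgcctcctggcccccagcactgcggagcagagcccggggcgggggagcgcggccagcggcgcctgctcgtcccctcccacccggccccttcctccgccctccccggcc
The Ccn1 match began 103 bases before the start, the Ankrd1 matches 210 and 123 bases before it, and the Ptpn14 match 146 bases before it. Ccn1 and Ptpn14 held the motif on the strand opposite to the gene, and Ankrd1 held both copies on the gene's own strand.

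The coactivators and Tead3 held the same letters, and are shown as the motif with 10 bases on either side so that its surroundings can be compared.
Yap1, chr9:8004722-8004747, minus strand: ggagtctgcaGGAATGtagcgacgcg
Wwtr1, chr3:57576031-57576056, minus strand: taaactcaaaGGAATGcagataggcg
Tead3, chr17:28350972-28350997, minus strand: cgacgagcgaGGAATGgggtgcgcgg
Tead3, chr17:28350708-28350733, minus strand: cggccgggctCATTCCgtacattccg
Tead3, chr17:28350699-28350724, minus strand: tcattccgtaCATTCCggccatcccc
The Yap1 match lay 141 bases before the start. The Wwtr1 match was a single genomic site, 136 or 170 bases before the start depending on which of its 2 annotated starts is used. Tead3 had 3 annotated starts: the first held a match at 182 bases before it, the second held matches at 123 and 114 bases before it and another just behind it, and the third held none. The 3 letters between the last 2 sites printed for Tead3 make them a close pair, and the 26-base stretches around them overlap. None of the 10 promoters held the AP-1 motif TGANTCA or the CArG box bound by SRF, which occurred in 7.81% and 1.63% of all promoters. The third Tead3 start held the NF-κB motif at 2 positions, and 4.51% of all promoters held it. Among genes of other lists with a promoter at hand, the TEAD letters were held by 4 of 12 other YAP and TAZ targets, 4 of 10 SRF and MRTF targets, 7 of 19 Hippo pathway genes and 3 of 5 other TEAD cofactors and relatives.

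**Figure D1:**
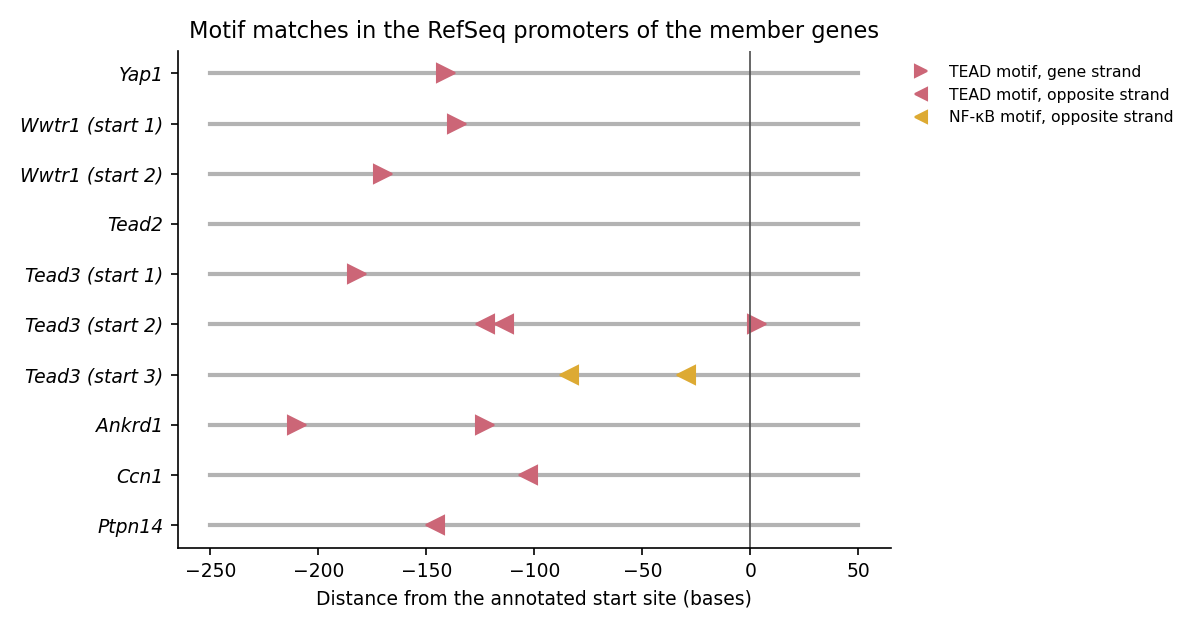
Position of motif matches in the 10 RefSeq promoters of 7 member genes. The x axis is the distance in bases from the annotated start site (vertical line), grey lines are the promoters searched, and triangles point along the strand of the motif (red, TEAD; yellow, NF-κB); 8 of the 10 promoters hold a TEAD match and Tead2 holds none.

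None of the 9 detected members differed more than 2-fold between the arrays in either direction. Among all detected genes 0.668% were more than 2-fold higher 24 h after loading and 1.83% were more than 2-fold lower, which were 95 and 260 genes (130 and 205 under median scaling, 122 and 210 under spike-in scaling). At 1.5-fold the counts were 0 members higher and 1 lower, Ptpn14, where 3.65% and 5.84% of all detected genes lay past that threshold. These were 520 genes higher and 831 lower, and the larger number was on the other side under median scaling (803 and 614) and spike-in scaling (754 and 639). The median log2 ratio of the 9 members was 0.00 and that of all detected genes was -0.01, with 5 members above 0 and 4 below. By role, the 5 coactivator and TEAD genes had a median of 0.26 and none was below 0 on its brightest probe. Of all detected genes, 52.4% were below 0. Wwtr1 passed to -0.02 under quantile normalization. Tead1, whose probes disagreed, passed below 0 when its probes were averaged or the median ratio of nearby spots was subtracted. Tead4, of the same family but not a member, had -0.66. The 3 CCN genes had a median of -0.30 and all were below 0. Ccn3 passed above 0 under median scaling, spike-in scaling and subtraction of the local median. Of the CCN genes that are not members, Ccn4 had -0.13, Ccn5 0.02 and Ccn6 0.68. More than 1 within-array error separated the arrays for 6 members, and for 43.4% of all detected genes. More than 2 errors did so for 4 of these members (Ccn1, Ptpn14, Tead2 and Tead3) and for 17.0% of all detected genes.

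**Figure D2:**
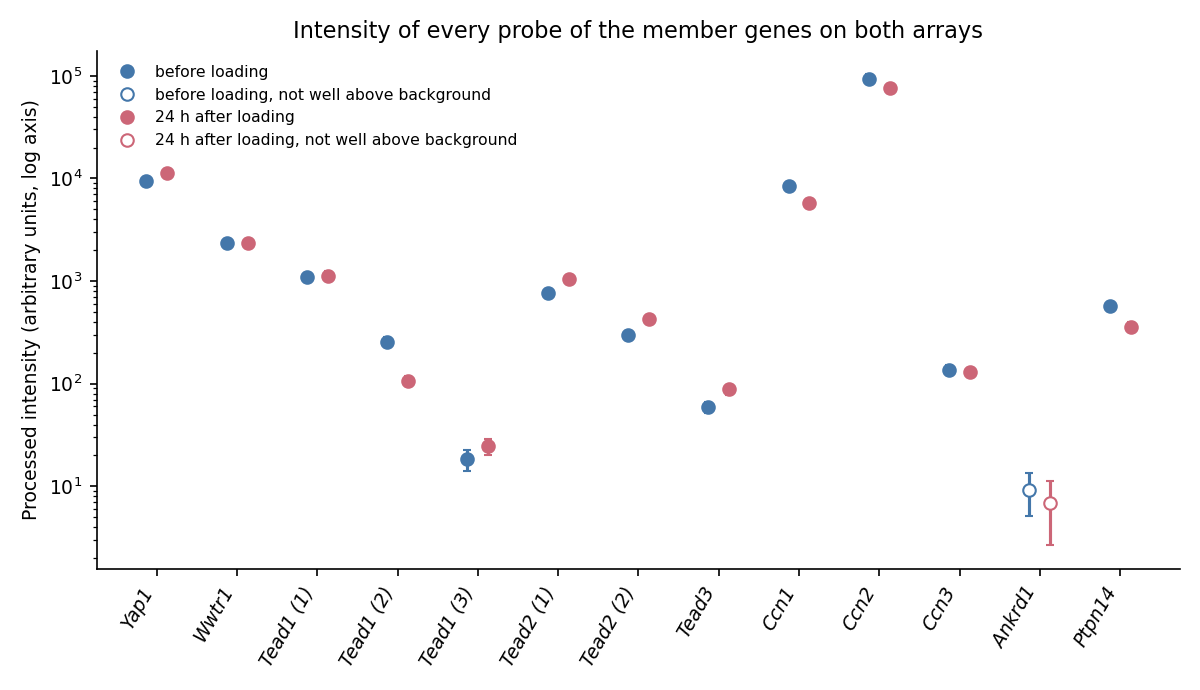
Processed intensity (log axis, arbitrary units) of all 13 probes of the 10 members before loading (blue) and 24 h after loading (red), with the scanner software's error as bars. Numbers in parentheses tell the probes of one gene apart, and only pairs at one position are comparable; open circles, at Ankrd1 alone, are not well above background.

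Yap1 (NM_001171147; chr9:7931999-8004638, minus strand) had an intensity of 9363 before and 11196 after loading. The log2 ratio was 0.26, with a within-array error of 0.20, and 16.4% of detected genes had a higher ratio. The value 24 h after loading was thus the greater by a little more than 1 error. Wwtr1 (NM_133784; chr3:57455644-57575910, minus strand) had 2326 before and 2333 after loading, a log2 ratio of 0.00 with an error of 0.20. Its spots were alike on both arrays. The difference between the ratios of these paralogues was 0.25, within its combined error of 0.29, so that Yap1 and Wwtr1 were not separated by this error.

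The TEAD genes encode the DNA-binding partners, and each TEAD protein can carry either coactivator. Tead2 (NM_011565; chr7:45215792-45233468) was measured by 2 probes. The brighter had 761 before and 1044 after loading, a log2 ratio of 0.46 with an error of 0.20, and the other had 295 and 425, a log2 ratio of 0.53 with an error of 0.21. Both were higher after loading, and they lay 0.07 apart. Among 3635 genes with several detected probes the median distance between the highest and the lowest ratio of a gene was 0.19, and 78.7% of them were farther apart than the Tead2 probes. Tead3 (NM_001204156; chr17:28331671-28350805, minus strand) had 59.3 before and 88.0 after loading, a log2 ratio of 0.57 with an error of 0.25, and 3.91% of detected genes had a higher ratio. The probe was dim, and its ratio corresponded to 1.48-fold. Under normexp it was 0.27, slightly above its error and below the ratio of Tead2, as it also was with local medians subtracted.

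Tead1 (NM_001166584; chr7:112679356-112906784) had 3 probes, which did not give 1 answer. The brightest had 1095 before and 1129 after loading, a log2 ratio of 0.04 with an error of 0.20. The second had 256 before and 106 after loading, a log2 ratio of -1.27 with an error of 0.21, which made it 2.41-fold lower. This was the one member probe past 2-fold. The third was close to the background, with 18.3 before and 24.6 after loading against a lowest intensity well above background of 17.3 and 17.8, and its log2 ratio was 0.43 with an error of 0.42. All 3 were assigned to the same transcript, and the positions of the probes on it were not analysed here. The probes spanned 1.70 on the log2 scale, and 0.303% of the genes with several detected probes spanned more. Around the second probe 8 spots lay within 100 µm, with a median log2 ratio of -0.13, and 1 of them was more than 2-fold lower. The mean over the 3 probes was -0.27, so that no direction is given for Tead1. The ratio of Tead2 exceeded that of the brightest Tead1 probe by 0.41, with a combined error of 0.29, and that of Tead3 exceeded it by 0.53, with an error of 0.32. Tead2 and Tead3 lay 0.11 apart, within their combined error of 0.32.

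**Figure D3:**
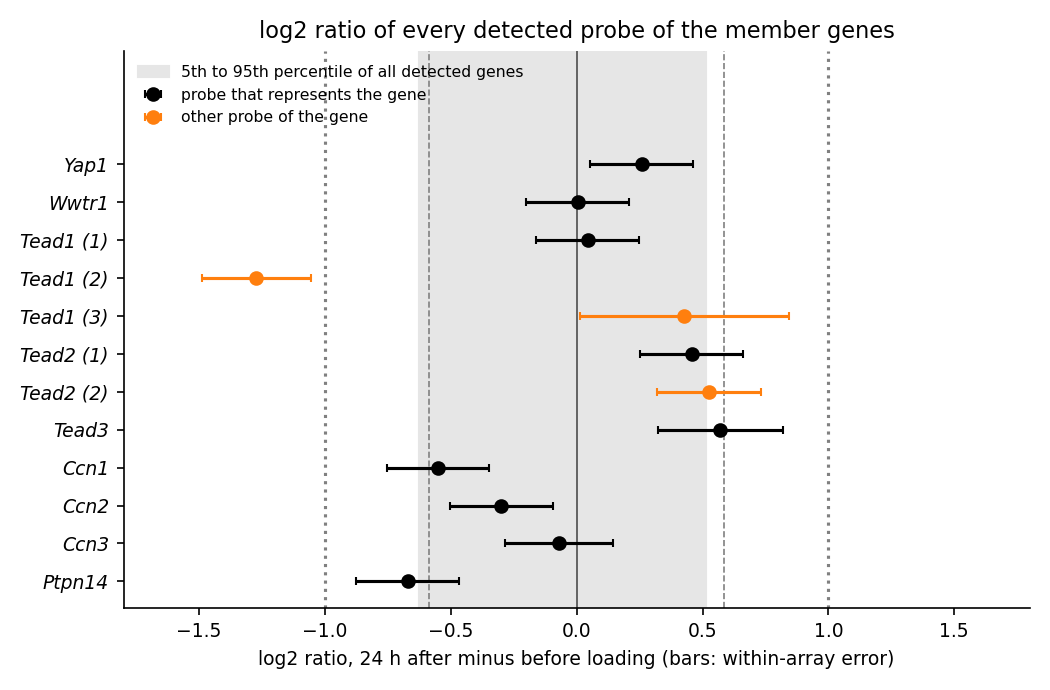
log2 ratio (24 h after minus before loading) of the 12 detected probes of the members, with within-array errors as bars. Black points represent the gene, orange points are its other probes, the grey band spans the 5th to 95th percentile of all detected genes (-0.63 to 0.51), and dashed and dotted lines mark 1.5-fold and 2-fold; the second Tead1 probe, at -1.27, lies apart from the other probes of its gene.

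The CCN genes encode secreted proteins that bind integrins and heparan sulphate, and Ccn1 and Ccn2 are TEAD targets. Ccn1 (NM_010516; chr3:145646971-145649985, minus strand), whose promoter is printed above, had 8464 before and 5775 after loading. The intensity was 31.7% lower, a log2 ratio of -0.55 with an error of 0.20, and 6.58% of detected genes had a lower ratio. Ccn2 (NM_010217; chr10:24595442-24598683) had 94116 before and 76443 after loading, which was 18.7% lower, a log2 ratio of -0.30 with an error of 0.20. Neither spot was saturated. Both genes were thus lower 24 h after loading by more than 1 error, but for Ccn2 the difference was within its error under median scaling, loess and quantile normalization, with log2 ratios of -0.20, -0.20 and -0.17. The ratios of Ccn1 and Ccn2 differed by 0.25 with a combined error of 0.29, so that by this error neither was called the lower of the pair. Ccn3 (NM_010930; chr15:54745910-54753762), a CCN protein whose actions often oppose those of CCN2, had 137 before and 130 after loading. Its log2 ratio was -0.07, within its error of 0.21. Ccn1 lay below Ccn3 by 0.48, with a combined error of 0.29.

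Ankrd1 (NM_013468; chr19:36111965-36119844, minus strand) encodes a nuclear and sarcomeric ankyrin repeat protein of striated muscle, which YAP also induces in many other cells. Its probe had 9.30 before and 6.92 after loading and on neither array was it well above background, so no ratio is given. The promoter with the TEAD letters at 2 positions therefore belonged to a gene without a measurable signal here. Ptpn14 (NM_008976; chr1:189728216-189876695) encodes a tyrosine phosphatase that binds YAP and restrains it, and is itself a YAP target. It had 573 before and 360 after loading, a log2 ratio of -0.67 with an error of 0.21. This was 1.59-fold lower, and 4.48% of detected genes had a lower ratio. Ptpn14 was the member with the lowest ratio on the brightest probe. It was no longer past 1.5-fold under median scaling or normexp, where its log2 ratio was -0.57 and -0.54. Its ratio and that of Ccn1 lay 0.12 apart with a combined error of 0.29. The 3 detected target members, Ccn1, Ccn2 and Ptpn14, had a median log2 ratio of -0.55. All were below 0, as were 52.4% of all detected genes, and all stayed there under each of the 11 other settings. Averaged probes and the 2 filters on dim probes could not change these values, since each gene had 1 probe, detected on both arrays. The deposited table and kept outliers could hardly change them either. The table repeats the same intensities in rounded form, and no outlier spot belonged to a member.

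**Figure D4:**
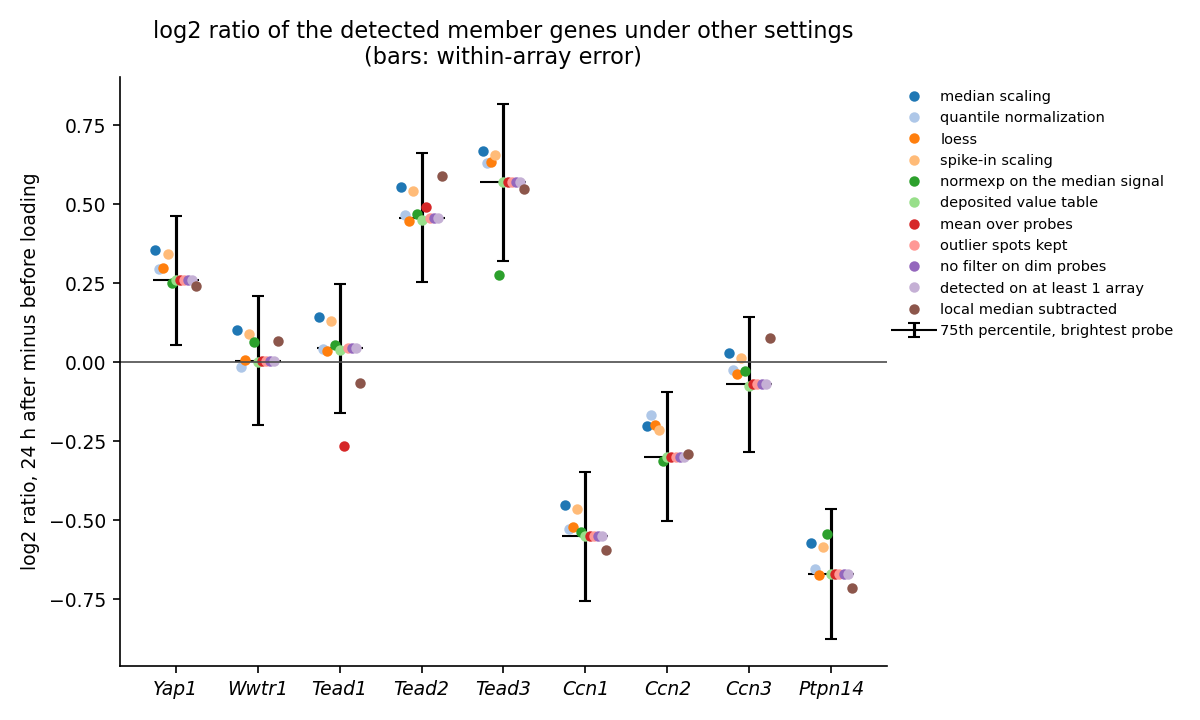
log2 ratio (24 h after minus before loading) of the 9 detected members as reported (horizontal tick with the within-array error as a bar) and under 11 other settings (coloured points). Yap1, Tead2 and Tead3 stay above 0 and Ccn1, Ccn2 and Ptpn14 stay below 0 under every setting drawn, whereas Wwtr1, Tead1 and Ccn3 cross 0 under quantile normalization, under averaged probes or local medians, and under median scaling, spike-in scaling or local medians.

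Other genes commonly given as YAP and TAZ targets were counted in the same way. Of 18 such genes 17 were detected, with a median log2 ratio of 0.15 beside -0.01 over all detected genes, and 12 were above 0 and 5 below, where 52.4% of all detected genes were below 0. Many were within their errors: Myof, Amotl2, Lats2, Igfbp3, Crim1, Nt5e and Nuak2 above 0, and Axl, F3 and Dock5 below. The median of 0.15 was itself smaller than the usual error of 0.20. Tgfb2, a secreted growth factor of the TGF-β family, had 4120 before and 6543 after loading, a log2 ratio of 0.67 with an error of 0.20, and its second probe gave 0.68. Rbms3, an RNA-binding protein, had 477 and 715, a log2 ratio of 0.59 with an error of 0.20, and its second detected probe gave 0.36. These were the 2 genes of the list more than 1.5-fold higher, and none was more than 1.5-fold lower. Foxf2 was not well above background. Counted together with the target members, 20 targets were detected, 12 above and 8 below 0, with a median of 0.10. The median of the other targets stayed between 0.13 and 0.24 under all settings.

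The Hippo pathway genes, which encode the kinases, scaffolds and membrane proteins upstream of YAP, were all detected. Of these 23 genes 14 were above 0 and 9 below, beside 52.4% of all detected genes below 0, and the median log2 ratio was 0.07. The kinase genes Stk3, Stk4, Lats1 and Lats2 had log2 ratios of -0.12, -0.23, 0.07 and 0.07, and all but Stk4 were within their errors. The second Lats2 probe, designed on another transcript, had 223 before and 120 after loading, a log2 ratio of -0.89, so that the probes of Lats2, like those of Tead1, parted. Dchs1, an atypical cadherin that binds the receptor Fat4 on the neighbouring cell, was the only gene of the list past 1.5-fold on its brightest probe. It had 341 before and 630 after loading, a log2 ratio of 0.89 with an error of 0.20, while Fat4 had a log2 ratio of 0.13. The remaining relatives of the members were Tead4, the Vgll genes, whose products compete with YAP for TEAD, and Ccn4, Ccn5 and Ccn6. Tead4 had 259 before and 163 after loading, a log2 ratio of -0.66 with an error of 0.21, the opposite side of 0 from Tead2 and Tead3. Ccn6 had 318 and 511, a log2 ratio of 0.68 with an error of 0.21, whereas Ccn4 and Ccn5 had -0.13 and 0.02. Vgll4 had a log2 ratio of 0.29. On neither array were Vgll1 and Vgll3 well above background, and Vgll2 was above it before loading only.

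Targets of SRF and its coactivator MRTF answer to actin assembly and overlap in part with YAP targets. All 12 were detected, with 4 above 0 and 8 below, beside 52.4% of all detected genes below 0, and Zyx (-0.01) and Cnn1 (-0.11) were within their errors. The median log2 ratio was -0.21, between -0.27 and -0.11 under the other settings. Actg2, smooth muscle γ-actin, had 317 before and 173 after loading, a log2 ratio of -0.87 with an error of 0.21. Fhl2, a LIM-domain protein, had 4863 and 3136, a log2 ratio of -0.63 with an error of 0.20. These 2 were more than 1.5-fold lower, and Tagln, Acta2 and Srf itself had log2 ratios of -0.57, -0.51 and -0.43. The second Srf probe, with 1049 before and 989 after loading, gave -0.08 with an error of 0.20, and the mean over both probes was -0.26. The genes of this list above 0 were Tpm1, Myl9, Flna and Vcl, the last with 0.01, and further Tpm1 probes lay between -0.72 and 0.22.

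**Figure D5:**
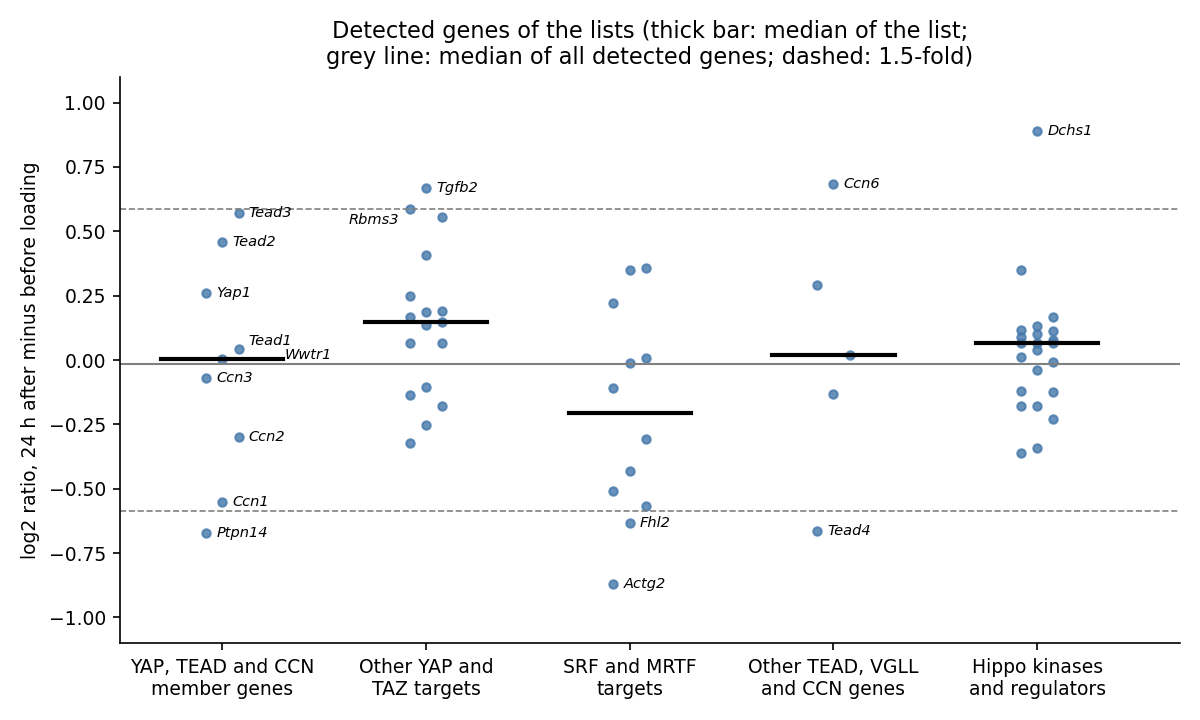
log2 ratio (24 h after minus before loading) of every detected gene of the members and of 4 related lists, one point per gene on its brightest probe. Thick bars are the medians of the lists (0.00, 0.15, -0.21, 0.02 and 0.07 from left to right), the grey line is the median of all detected genes and the dashed lines mark 1.5-fold; names are given for the members and for genes past 1.5-fold, and Amotl2 and Lats2 stand in 2 lists.

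Markers of other cells that a cartilage preparation can hold were read beside these values. The 6 fibroblast-type markers were all detected, with a summed scaled intensity of 285 before and 287 after loading. Of 12 skeletal muscle markers 8 were detected, with sums of 5.96 and 6.40, and Mylpf, Ckm, Des and Myod1 were not well above background. Within this list Myh8, Tnnc2 and Myh3 had log2 ratios of 1.15, 1.03 and 0.64 and Tnnt3 had -0.78. Of the 5 macrophage markers with a probe 4 were detected, with sums of 8.50 and 7.88, Csf1r had a log2 ratio of -0.15, and Aif1 was not well above background. The other 3 were above 0, among them Ptprc, with 20.9 before and 46.1 after loading, a log2 ratio of 1.14 with an error of 0.35 and 0.40 under normexp. Most of the macrophage sum came from the brightest Csf1r probe, with 3646 before and 3288 after loading. Further Csf1r probes gave 0.20 and 0.27, and the mean over its probes was 0.11. The second Adgre1 probe gave -0.08. Of 6 endothelial markers 3 were detected, with sums of 31.2 and 29.8, and Cdh5, Tek and Emcn were not well above background. Most of the endothelial sum came from the brighter Kdr probe, with 12774 before and 12375 after loading. A second Kdr probe, averaged over 9 spots, had only 5.05 and 5.63 and failed the background criterion at both time points. The endothelial sum thus rested mainly on 1 probe, whose signal the other probe of its gene did not share. The part of these cells in the values of Ccn1, Ccn2, Ptpn14, the SRF targets and the TEAD genes was not tested.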

How the data were processed

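RNA of 2 samples, 1 before loading and 1 taken 24 h after it, was labelled with Cy3 and hybridised to SurePrint G3 Mouse Gene Expression arrays on 1 slide. The deposited values are spot intensities that the authors obtained with Feature Extraction 10.10.1.1, after subtraction of the background and without normalization between arrays. The authors' value table repeats these intensities at 3 significant digits and lies within 0.497% of them.

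Of 59305 non-control spots, 141 and 138 outlier spots were left out, none was saturated, and 59.1% and 57.7% were well above background, before and after loading. No outlier spot belonged to a member. Spots of 1 probe were averaged, giving 55678 probes, of which 27235 were named through unversioned transcript accessions in the RefSeq table for GRCm38.p6, which also gave the coordinates. Intensities were converted to log2 after division by each array's 75th percentile (466.4 and 466.2). The brightest probe represented a gene, which was detected if, on both arrays, at least as many of its spots were well above background as were not. Precision is limited by having 1 array per time point. The median within-array error was 0.20. Between spots of the same probe the log2 ratio had a median SD of 0.085, over 264 probes with at least 8 spots. The scanner software's error, used throughout, was thus wider than the spread between such spots. No test was run, and calls are past 2-fold or 1.5-fold. All members and, of the other lists, genes past 1.5-fold were named, and further genes (among them Matn1, Tagln, Acta2, Srf, Zyx, Cnn1, Vgll4, Lats2 and the other kinases) were named after their values were seen. The members and all 10 lists were chosen with earlier results of these data known. Motifs were searched as exact matches on both strands. Those of the CArG box and NF-κB have variable bases. Alternatives were median, quantile, loess and spike-in scaling, normexp (offset 50) on the median signal, the deposited table, averaged probes, kept outliers, 2 filters on dim probes and local medians within 100 µm. Python 3.11.15, numpy 2.4.6, pandas 2.3.3, matplotlib 3.10.9, R 4.3.3 and limma 3.58.1 were used.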

Additional observations from a re-analysis of the deposited data

How the results depend on the processing

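No paired analysis was possible because each time point had 1 array. Under the 11 alternatives Yap1 stayed between 0.24 and 0.36, Tead2 between 0.45 and 0.59, Ccn1 between -0.60 and -0.45, Ccn2 between -0.31 and -0.17, and Ptpn14 between -0.71 and -0.54. Wwtr1 ranged from -0.02 to 0.10 and Ccn3 from -0.08 to 0.08. Tead1 ranged from -0.27, when its probes were averaged, to 0.14, and Tead3 from 0.27 under normexp to 0.67. The first followed from including the second Tead1 probe. The cause of the second was not tested. No member passed 2-fold under any of the 11 alternatives, and the count lower was 1 at a 1.5-fold threshold. Requiring 2 within-array errors beyond 2-fold could not add a member, since none passed 2-fold. At 1.5-fold 1 member was higher under median, quantile, loess and spike-in scaling and with local medians, and 2 were lower with local medians.

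Median scaling shifted every log2 ratio by 0.10. Over all detected genes the counts more than 2-fold higher and lower were 95 and 260 as reported, 130 and 205 under median scaling, 122 and 210 under spike-in scaling, 38 and 117 under normexp, 492 and 983 without a filter on dim probes, and 192 and 507 when detection on 1 array sufficed. The median of the members lay between -0.07 and 0.10, that of the Hippo list between -0.01 and 0.16. For 86 other listed genes 11 of 946 values moved by more than 1 within-array error. The 2 filters on dim probes leave the ratio of a detected gene as it is, and the deposited table repeats the same intensities in rounded form. A reversal was counted only for genes past 2-fold as reported (Myh8, Tnnc2 and Ptprc), and none of these reversed. Smaller ratios did change sign. With averaged probes Lats2 went from 0.07 to -0.41 and Tpm1 from 0.36 to -0.06. Low signal over background limits Tead3, the third Tead1 probe and Ankrd1.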
